A study of Mus musculus with 6 samples.

Results

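Respiratory complex I is described here through the 44 genes whose current symbol starts with Nduf, of 23185 named genes measured on the arrays. Of these, 36 carry the symbols of subunits (Ndufa, Ndufb, Ndufc, Ndufs and Ndufv) and 8 those of assembly factors (Ndufaf1 to Ndufaf8). The arrays compare hematopoietic stem cells (HSCs) of wild-type (WT) mice with those of Merit40-/- mice, which lack a subunit, encoded by Babam1, that is shared by the BRISC and BRCA1-A deubiquitinase complexes. In both genotypes the cells came untreated from the bone marrow of young adult mice and were sorted 2 times for CD150+CD48- cells within the LSK gate (lineage-negative, Sca-1+, c-Kit+). Each genotype has 3 Affymetrix arrays, labelled as biological replicates 1 to 3. No source used here names the strain, the cells in which Babam1 was deleted or the number of mice behind an array, so the p-values measure the spread between these arrays.

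Complex I takes electrons from NADH, passes them along a chain of iron-sulfur clusters to ubiquinone and pumps protons across the inner mitochondrial membrane. Its matrix arm holds the NADH-oxidising and the quinone-reducing modules, its membrane arm holds the proton pumps, and a core shared with bacteria is surrounded by accessory subunits. Assembly factors build the modules or modify subunits and are absent from the finished enzyme. HSCs are known for a quiescent state that draws largely on glycolysis, with more mitochondrial respiration when they divide and differentiate.

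The values are log2 expression levels from the robust multi-array average (RMA) method, 1 per gene and array, and a difference is always Merit40-/- minus WT on this log2 scale. Because RMA equalises the intensity distributions of the arrays, a change in total RNA per cell would not show, and fewer cells with a transcript cannot be told apart from less transcript per cell. The level of one gene's probes is not compared with that of another's. The median level over all named genes (4.93) serves as a mark of low signal. Babam1 read 7.91, 8.04 and 8.05 in WT and 4.29, 3.87 and 4.01 in Merit40-/-, a difference of -3.94 (SE 0.14, adjusted p = 5.04e-05 in limma). The 8 measured genes of a list of HSC markers, among them Slamf1 (CD150), Kit, Procr, Mecom and Hlf, included none with both group means below that median. In 1 array, Merit40-/- replicate 1, a list of 14 skeletal muscle markers averaged 7.79, against 4.58 to 4.83 on the other arrays. Of this list Myh2 was lowest on that array (3.35). Mb (4.86 there) was higher on WT replicate 1 (4.90) and Merit40-/- replicate 3 (4.98), and all the others were highest on Merit40-/- replicate 1. In Merit40-/- replicate 3, a list of 10 osteoclast markers averaged 5.78, against 4.67 to 4.82 elsewhere. Ctsk (7.94, against 3.55 to 3.89 elsewhere) and Acp5 (7.91, against 4.70 to 5.19) stood out on that array. Dcstamp, Calcr, Nfatc1 and Itgb3 were highest on other arrays, and 5 of the 10 had both group means below the median of all genes. A list of 5 megakaryocyte markers averaged 7.91, 8.16 and 7.88 in WT and 7.43, 7.67 and 7.58 in Merit40-/-, with 4 of 5 lower, a median difference of -0.53 (Itga2b) and none past the test.

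The promoters of the genes on which the results below turn are shown first. Ndufaf7, Ndufaf5 and Ndufb5 are the only members whose WT and Merit40-/- arrays did not overlap, and Ndufs3 and Ndufab1 are the members that varied most between arrays. Each sequence is the RefSeq window (build GRCm38.p6) from 250 bases before to 50 bases after the annotated start, written 5′ to 3′ on the strand of the gene. Ndufaf7 lies at chr17:78936885-78937184, plus strand, Ndufaf5 at chr2:140170396-140170695, plus strand, Ndufb5 at chr3:32736813-32737112, plus strand, Ndufs3 at chr2:90904672-90904971, minus strand and Ndufab1 at chr7:122101799-122102098, minus strand. Capitals mark matches, on either strand, to core letters of 4 factors known from promoters of mitochondrial genes: CATGCGC for NRF1, CCGGAAG for ETS factors such as GABP, ATGGCGG for YY1 and AAGGTCA for the estrogen-related receptors (ERR).
Ndufaf7 promoter: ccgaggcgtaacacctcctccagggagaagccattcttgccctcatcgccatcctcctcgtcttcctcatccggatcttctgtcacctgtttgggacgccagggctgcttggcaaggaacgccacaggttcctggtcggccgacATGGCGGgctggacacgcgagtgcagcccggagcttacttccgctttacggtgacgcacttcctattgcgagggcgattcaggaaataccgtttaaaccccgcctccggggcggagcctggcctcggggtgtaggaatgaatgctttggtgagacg
Ndufaf5 promoter: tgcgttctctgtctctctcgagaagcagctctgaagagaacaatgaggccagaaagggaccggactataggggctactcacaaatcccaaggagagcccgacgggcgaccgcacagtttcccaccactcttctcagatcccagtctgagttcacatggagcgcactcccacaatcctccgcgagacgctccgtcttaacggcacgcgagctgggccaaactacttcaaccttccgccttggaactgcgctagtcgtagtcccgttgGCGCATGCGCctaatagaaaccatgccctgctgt
Ndufb5 promoter: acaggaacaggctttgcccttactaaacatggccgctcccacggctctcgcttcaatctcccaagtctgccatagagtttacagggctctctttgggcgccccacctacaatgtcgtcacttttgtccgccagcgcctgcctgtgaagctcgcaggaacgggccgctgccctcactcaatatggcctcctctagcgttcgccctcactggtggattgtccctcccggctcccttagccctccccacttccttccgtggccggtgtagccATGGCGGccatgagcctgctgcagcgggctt
Ndufs3 promoter: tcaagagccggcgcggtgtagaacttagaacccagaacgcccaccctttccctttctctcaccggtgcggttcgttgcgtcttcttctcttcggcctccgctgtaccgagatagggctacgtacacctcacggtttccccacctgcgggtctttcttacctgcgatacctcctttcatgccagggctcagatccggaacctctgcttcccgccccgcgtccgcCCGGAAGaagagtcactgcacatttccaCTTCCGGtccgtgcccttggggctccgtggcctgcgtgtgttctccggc
Ndufab1 promoter: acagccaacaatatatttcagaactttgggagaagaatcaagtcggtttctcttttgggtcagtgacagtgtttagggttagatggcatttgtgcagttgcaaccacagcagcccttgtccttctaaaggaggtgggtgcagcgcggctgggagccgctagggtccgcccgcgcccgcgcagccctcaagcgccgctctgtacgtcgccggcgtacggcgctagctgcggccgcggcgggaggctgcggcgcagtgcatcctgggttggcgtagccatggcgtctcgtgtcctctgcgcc

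Ndufaf5 carries the NRF1 letters on both strands in 1 overlapping palindrome just after the start (first bases 17 and 20). Ndufaf7 carries the YY1 letters from base -106, counted from the start, and Ndufb5 from base 20, and Ndufs3 has the ETS letters from base -27 and, on the other strand, from base 2. None of the 4 sets of letters is in the Ndufab1 window. Of the 44 members, 38 had a promoter in the table, with 40 windows. Of these windows, 11 (27.5%) held the YY1 letters, against 5.23% of the 21141 windows of all genes tested, and 7 (17.5%) held the NRF1 letters, against 4.91%. The ETS letters were in 6 (15.0%), against 11.5%, and the ERR letters in 1 (2.5%, Ndufb2), against 4.08%. The YY1 letters begin with ATG and can also fall on a translation start. In Ndufb5 the window reads on from this ATG to its end without a stop codon, and no protein sequence was compared. For the other windows this was not tested. The median GC content was 59.3% in the members' windows and 56.7% in those of all genes tested, and base composition alone can move such shares.

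Transcripts of complex I genes did not differ detectably between Merit40-/- and WT HSCs. None of the 44 members passed the threshold (limma, adjusted p under 0.05 over all genes), where 0.00431% of all genes did, which is Babam1 alone. The smallest adjusted p of a member was 0.999 in limma. At an unadjusted p under 0.05 there was 1 member in limma, Ndufaf7 (2.27% of members), against 4.22% of all genes (1.96% lower and 2.26% higher), and it was lower. For 3 members (6.82%) every array of one genotype lay beyond every array of the other, against 9.05% of all genes. All 3 were lower in Merit40-/-, against 4.22% of all genes, and 0 were higher, against 4.84%. Differences ranged from -0.39 for Ndufaf7 to 0.33 for Ndufab1, and none reached a fold of 1.5.

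The intervals show how large a change these arrays could have missed. In 43 of the 44 members (97.7%) the 95% interval excluded changes beyond 2-fold, against 96.4% of all genes, and in 35 (79.5%) it excluded changes beyond 1.5-fold, against 73.2%. Only Ndufab1, with an interval from -0.64 to 1.31, reached beyond 2-fold. The median half-width was 0.332 for the members and 0.342 for all genes. The number of arrays limits this precision, and log2 values of dim probes are compressed.

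**Figure D1:**
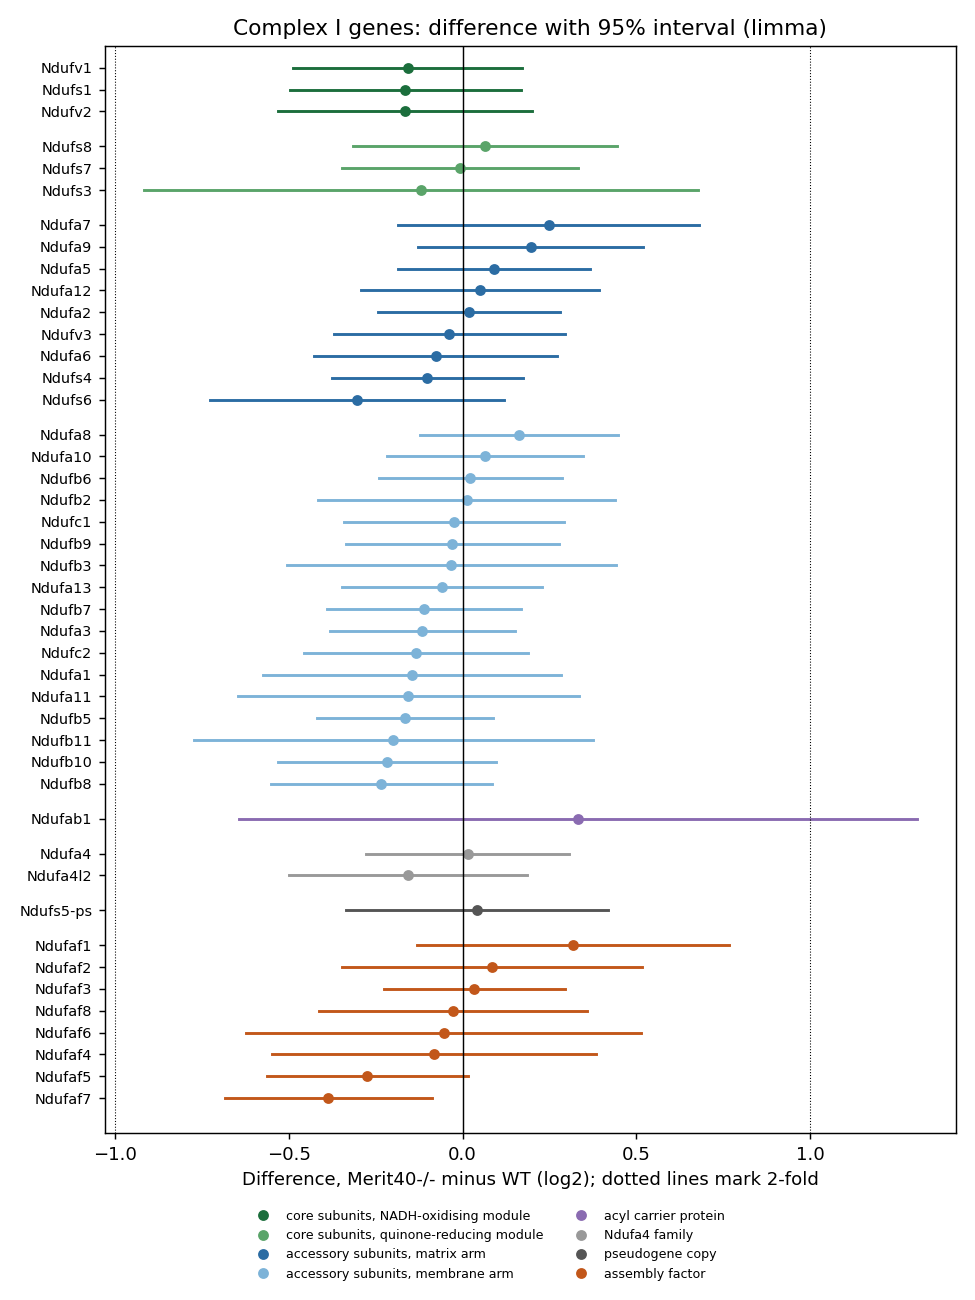
Difference in log2 level (horizontal axis, Merit40-/- minus WT) of each of the 44 complex I genes, grouped by place in the complex, with points for the estimate and lines for the 95% interval from limma. All intervals but that of Ndufaf7 include 0, and only the Ndufab1 interval crosses a dotted line at 2-fold.

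The 36 subunit symbols and the 8 assembly factors had like medians. Of the subunits, 23 were lower and 13 higher in Merit40-/-, with a median difference of -0.048, and of the assembly factors 5 were lower and 3 higher, with a median of -0.041. Over all genes 48.5% were lower and the median was 0.0052. The subunit median was 0.027 without Merit40-/- replicate 1, the array with high muscle markers, 0.0022 without WT replicate 2 and -0.11 without Merit40-/- replicate 3, so its sign rests on single arrays. The assembly factor median likewise ran from -0.17 without WT replicate 1 to 0.089 without WT replicate 2.

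Among the core subunits of the NADH-oxidising module, all 3 were lower in Merit40-/-, and none passed the test. Ndufv1, which binds the flavin that accepts electrons from NADH, read 8.40, 8.45 and 8.72 in WT and 8.20, 8.36 and 8.54 in Merit40-/-. Ndufv2, which carries an iron-sulfur cluster next to it, read 9.289, 9.459 and 8.892 and then 9.079, 9.064 and 8.999. Ndufs1, the large subunit with further clusters, read 7.60, 7.91 and 7.61 and then 7.74, 7.44 and 7.46. For each gene the genotypes overlapped: the highest Merit40-/- array lay above the lowest WT array. The differences were -0.16 (SE 0.14) for Ndufv1, -0.17 (SE 0.16) for Ndufv2 and -0.16 (SE 0.14) for Ndufs1, each with an adjusted p of 0.999 in limma. With single arrays left out they ran from -0.25 to -0.06 for Ndufv1, from -0.33 (without WT replicate 3) to -0.04 for Ndufv2 and from -0.26 to -0.06 for Ndufs1, with the values nearest 0 for Ndufs1 and Ndufv2 without WT replicate 2. As a group the 3 averaged 8.43, 8.61 and 8.41 in WT and 8.34, 8.29 and 8.33 in Merit40-/-, so these averages did not overlap, in a group of 3 genes singled out after its values were seen.

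The core subunits of the quinone-reducing module did not share a direction. Of this module 3 subunits were analysed. Ndufs7, which holds the cluster that hands electrons to ubiquinone, read 9.73, 9.86 and 9.49 in WT and 9.63, 9.55 and 9.88 in Merit40-/-, a difference of -0.0082 (SE 0.15). Ndufs8, which carries a pair of clusters, read 8.52, 8.66 and 8.45 and then 8.49, 8.38 and 8.94, with its highest value on Merit40-/- replicate 3 and a difference of 0.06 (SE 0.17). Ndufs3, a scaffold of this module, was far more scattered, at 5.27, 5.43 and 4.46 in WT and 4.41, 4.75 and 5.63 in Merit40-/-. Its group means, 5.05 in WT and 4.93 in Merit40-/-, lay close to the median of all genes (4.93), the mark of low signal. Its high and low arrays were spread over both genotypes, and its difference was -0.12 (SE 0.35, adjusted p = 0.999 in limma).

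Accessory subunits of the matrix arm were split, with 5 of 9 higher and 4 lower, a median difference of 0.018 and no member past the test. The median ran from -0.039 without WT replicate 3 to 0.070 without Merit40-/- replicate 1. Ndufs6, a zinc-binding subunit of the NADH-oxidising module, had the lowest difference of all subunits. It read 10.95, 11.07 and 11.07 in WT and 10.31, 10.98 and 10.89 in Merit40-/-. The low value was that of Merit40-/- replicate 1, the array with high muscle markers, while replicate 2 lay inside the WT range and replicate 3 just below it. The difference was -0.30 (SE 0.18, adjusted p = 0.999 in limma) with all arrays and -0.09 without that array. Ndufa7, a small subunit, read 8.28, 8.67 and 8.45 and then 8.44, 8.62 and 9.08, and Ndufa9, a subunit that binds a pyridine nucleotide, read 8.06, 8.21 and 8.15 and then 8.30, 8.14 and 8.57. Both were highest on Merit40-/- replicate 3, with differences of 0.25 (SE 0.19) and 0.20 (SE 0.14). Ndufs4, whose loss in mice models Leigh syndrome, differed by -0.10 (SE 0.12), Ndufa6 by -0.08 (SE 0.15), Ndufv3 by -0.04 (SE 0.14), Ndufa2 by 0.02 (SE 0.11), Ndufa12 by 0.05 (SE 0.15) and Ndufa5 by 0.09 (SE 0.12).

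Accessory subunits of the membrane arm were lower more often than higher, at 13 of 17 lower and 4 higher, with a median difference of -0.11 and no member past the test. This count rests on single arrays: without Merit40-/- replicate 1, the array with high muscle markers, 9 of 17 were lower with a median of -0.0046, and without WT replicate 2 it was 10 of 17 with a median of -0.017. Ndufb5, a subunit with a single span through the membrane, read 9.79, 9.85 and 9.80 in WT and 9.56, 9.68 and 9.69 in Merit40-/-. All WT arrays lay above all Merit40-/- arrays, by a gap of 0.091 between the nearest, and the difference was -0.17 (SE 0.11, adjusted p = 0.999 in limma). That is 1 of 17 (5.88%) without overlap, where 4.22% of all genes were lower without overlap. Ndufb8 read 10.61, 10.46 and 10.22 and then 10.11, 10.17 and 10.30, and Ndufb10 read 10.114, 10.498 and 10.324 and then 10.066, 10.018 and 10.201. In both genes the genotypes overlapped, with differences of -0.23 (SE 0.14) for Ndufb8 and -0.22 (SE 0.14) for Ndufb10. Ndufa8, which is folded by disulfide bonds in the intermembrane space, was the highest of this arm, at 9.14, 9.22 and 9.05 in WT and 9.17, 9.30 and 9.43 in Merit40-/-, a difference of 0.16 (SE 0.12).

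The other subunits of the membrane arm differed by less than 0.2. The X-linked genes are Ndufa1, a small subunit needed for assembly, at -0.14 (SE 0.19), and Ndufb11 at -0.20 (SE 0.25), which ranged over 0.850 between arrays. Ndufa11 differed by -0.16 (SE 0.21), Ndufc2 by -0.13 (SE 0.14), Ndufa3 by -0.12 (SE 0.12), Ndufb7 by -0.11 (SE 0.12) and Ndufa13 (also known as GRIM-19) by -0.06 (SE 0.13). Ndufb3, Ndufb9, Ndufc1, Ndufb2, Ndufb6 and Ndufa10 lay between -0.03 and 0.06. Ndufb1, Ndufb4, Ndufs5 and the 7 subunits encoded by mitochondrial DNA were not analysed here.

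Ndufab1, the mitochondrial acyl carrier protein, which serves fatty acid synthesis as well as both arms of complex I, varied more between arrays than any other member. It read 7.22, 7.43 and 6.02 in WT and 6.81, 6.87 and 7.99 in Merit40-/-, with the lowest value in WT replicate 3 and the highest in Merit40-/- replicate 3. The difference of 0.33 (SE 0.42, adjusted p = 0.999 in limma) is smaller than the SD within either genotype, 0.76 in WT and 0.67 in Merit40-/- (n = 3 each), and it was -0.10 without WT replicate 3 and -0.05 without Merit40-/- replicate 3. Ndufs3 was the only other member to range over more than 1 log2 unit, at 1.22 against 1.97 for Ndufab1, and both were high on Merit40-/- replicate 3 and low on WT replicate 3. Over the 6 arrays Pearson's r of these 2 genes was 0.895, against a median of 0.288 over the 946 pairs of members. This pair was picked after its values were seen, and the points share the arrays. Ndufs3 also lay close to the mark of low signal. The residual SD was 0.58 for Ndufs3 and 0.72 for Ndufab1, where the median was 0.172 for the members and 0.183 for all genes.

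Of the remaining symbols taken by the rule, 3 encode no structural subunit of complex I. Ndufa4, now assigned to complex IV, read 10.94, 11.08 and 10.79 in WT and 10.97, 10.85 and 11.03 in Merit40-/-, a difference of 0.01 (SE 0.13). Ndufa4l2, its hypoxia-inducible paralog, read 3.30, 3.79 and 3.56 and then 3.29, 3.45 and 3.44, and was the only member with both group means below the median of all genes. At such low signal its difference of -0.16 (SE 0.15) says little about the transcript. Ndufs5-ps, a transcribed pseudogene, differed by 0.04 (SE 0.16), and how far its probes also read the parent gene Ndufs5 was not tested. Without these 3 genes the median difference of the subunits was -0.058.

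Among the assembly factors, Ndufaf7 and Ndufaf5 were lower in every Merit40-/- array than in every WT array, without passing the test. These 2 of 8 compare with 4.22% of all genes lower without overlap and 9.05% without overlap in either direction. Ndufaf7, a methyltransferase of the mitochondrial matrix that acts early in assembly, read 6.59, 6.73 and 6.89 in WT and 6.45, 6.36 and 6.24 in Merit40-/-. The genotypes were separated by 0.13 between the nearest arrays, and the level was 6.74 ± 0.15 in WT and 6.35 ± 0.11 in Merit40-/- (SD, n = 3). The difference was -0.39 (SE 0.13, 1.31-fold), with a 95% interval from -0.68 to -0.09, an unadjusted p of 0.0174 and an adjusted p of 0.999 in limma. The unadjusted p was 0.0636 in limma without WT replicate 3 and 0.0569 without Merit40-/- replicate 3, the array with high osteoclast markers. Ndufaf5, which hydroxylates an arginine of Ndufs7, read 6.69, 6.62 and 6.71 in WT and 6.28, 6.58 and 6.32 in Merit40-/-. Its replicate 2 of Merit40-/- lay only 0.036 below the lowest WT array, and the difference was -0.27 (SE 0.13, adjusted p = 0.999 in limma).

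The other assembly factors overlapped between genotypes. Ndufaf1, part of the intermediate assembly complex that builds the membrane arm, read 6.98, 7.62 and 6.91 in WT and 7.54, 7.37 and 7.55 in Merit40-/-. It was the highest assembly factor at 0.32 (SE 0.19), with WT replicate 2 above all Merit40-/- arrays, and stood at 0.54 without that array (unadjusted p = 0.0051, adjusted p = 0.996 in limma). Ndufaf3 and Ndufaf4, which work together on the quinone-reducing module, read 7.30, 7.40 and 7.37 and then 7.49, 7.34 and 7.34, and 7.846, 8.489 and 7.959 and then 7.997, 8.278 and 7.773. Neither separated the genotypes, at 0.03 (SE 0.11) and -0.08 (SE 0.20). Ndufaf2, a paralog of Ndufa12 that holds its place during assembly, read 8.08, 8.51 and 7.88 and then 8.04, 8.45 and 8.25, a difference of 0.09 (SE 0.19). Ndufaf6 read 6.17, 6.99 and 6.42 and then 6.86, 6.17 and 6.38, a difference of -0.05 (SE 0.25). Ndufaf8, the partner of Ndufaf5, read 7.72, 8.10 and 7.94 and then 7.61, 8.12 and 7.94. Its difference was -0.03 (SE 0.17), with a 95% interval from -0.41 to 0.36 that includes the difference of Ndufaf5.

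**Figure D2:**
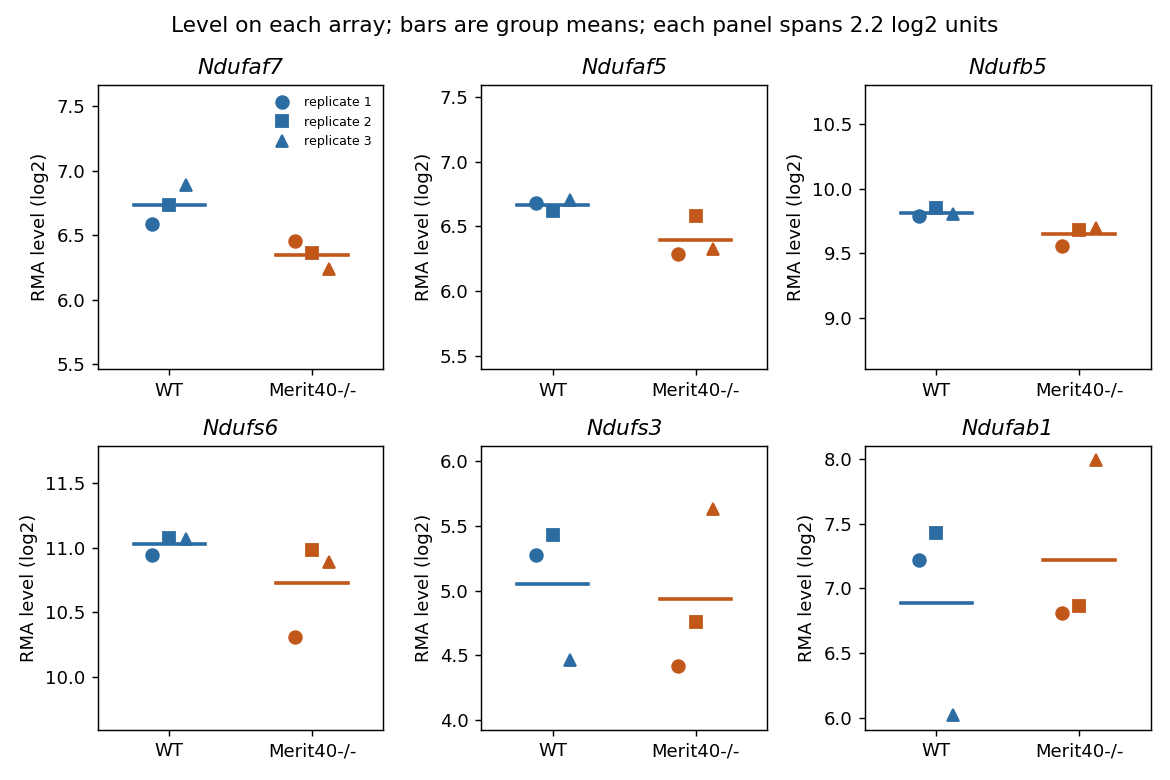
RMA level (log2) of 6 complex I genes on each array, with symbols for replicates 1 to 3, blue for WT, orange for Merit40-/- and bars for the group means. Ndufaf7, Ndufaf5 and Ndufb5 do not overlap between genotypes, the Ndufs6 mean is pulled down by Merit40-/- replicate 1, and Ndufs3 and Ndufab1 scatter within both genotypes.

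Assembly factors without an Nduf symbol gave 8 lower and 4 higher of 12 measured, with a median difference of -0.07 and none past the test. Timmdc1, a membrane protein that helps to build the membrane arm, was the lowest at -0.34 (SE 0.14). It read 6.68, 7.05 and 6.70 in WT and 6.51, 6.51 and 6.38 in Merit40-/-, so that all Merit40-/- arrays lay below all WT arrays (unadjusted p = 0.0371, adjusted p = 0.999 in limma). That is 1 of 12 (8.33%) without overlap, where 4.22% of all genes were lower without overlap and 9.05% did not overlap in either direction. Nubpl, which supplies iron-sulfur clusters to complex I, was the highest at 0.16 (SE 0.13).

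The mean of the complex I subunits varied between arrays of both genotypes. It was 8.97, 9.14 and 8.93 in WT and 8.85, 8.96 and 9.10 in Merit40-/-, or 9.01 ± 0.11 and 8.97 ± 0.13 (SD, n = 3). The lowest and the highest Merit40-/- array therefore differed by more than the genotypes. Of the 36 subunits, 15 (41.7%) had their highest value on WT replicate 2, where 15.0% of all genes did, and 12 (33.3%) on Merit40-/- replicate 3, against 19.2%. Merit40-/- replicate 1 held the lowest value of 15 subunits (41.7%), against 17.8% of all genes, and Merit40-/- replicate 3 that of 0 subunits. The assembly factors averaged 7.17, 7.56 and 7.26 in WT and 7.28, 7.33 and 7.22 in Merit40-/-, and so were also highest on WT replicate 2 but not on Merit40-/- replicate 3.

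Complexes III, IV and V of oxidative phosphorylation were, like the complex I subunits, lowest on Merit40-/- replicate 1 and above the WT mean on Merit40-/- replicate 3. Relative to the WT mean, Merit40-/- replicate 1 stood at -0.17 for the complex I subunits, -0.13 for complex III, -0.12 for complex IV and -0.13 for ATP synthase (complex V), and Merit40-/- replicate 3 stood at 0.09, 0.09, 0.12 and 0.07. In complex II, which feeds electrons from succinate, the 4 subunits stood at -0.03, -0.14 and 0.11 on Merit40-/- replicates 1, 2 and 3, and its 4 assembly factors at -0.23, -0.04 and -0.29. Merit40-/- replicate 1 is also the array in which the muscle markers stood 3.14 above the WT mean and the 3 muscle isoforms of complex IV (Cox6a2, Cox7a1 and Cox8b) 2.202 above it. Of these isoforms Cox6a2 and Cox8b were highest on that array, while Cox7a1 was highest on Merit40-/- replicate 2, at 5.76 against 5.28 on replicate 1. Of the 14 muscle markers, 5 had both group means below the median of all genes. Lists of granulocyte, erythroid, B cell, T and NK cell and macrophage markers were also read, with no gene past the test. The granulocyte list averaged 9.37, 9.10 and 8.98 in WT and 9.56, 9.52 and 8.91 in Merit40-/-, with 6 genes higher and 3 lower. The part of RNA from muscle, osteoclasts, megakaryocytes or any of these other cells in the complex I values was not tested.

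**Figure D3:**
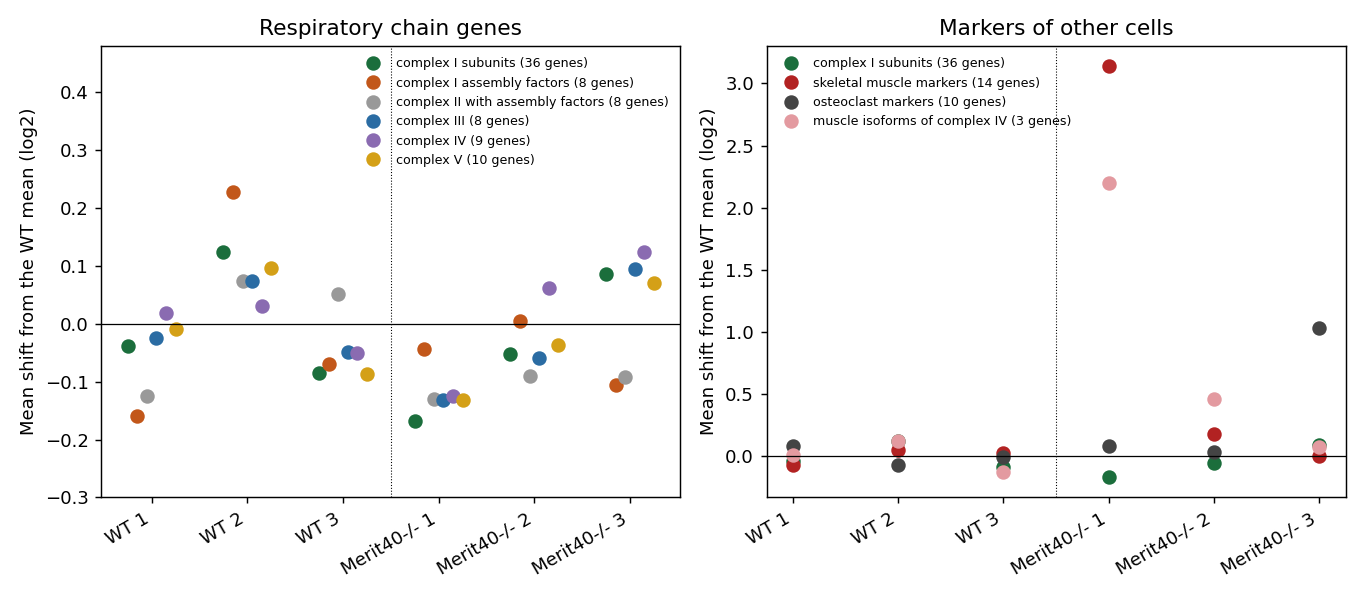
Mean shift of gene groups on each array relative to their WT mean (log2, vertical axis), for respiratory chain genes on the left and for markers of other cells beside the complex I subunits on the right, with points for the mean over the genes of a group; complex II here includes its assembly factors. Complex I subunits range from -0.17 on Merit40-/- replicate 1 to 0.12 on WT replicate 2, while muscle markers stand at 3.14 on Merit40-/- replicate 1.

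No gene of complexes II to V passed the test. In complex II and its assembly factors 5 of 8 were lower, with a median difference of -0.032 and Sdhaf3, an assembly factor, lowest at -0.62 (SE 0.21) and Sdhaf2 highest at 0.07 (SE 0.12). In complex III 5 of 8 were lower, with a median of -0.043, from Uqcrq at -0.16 (SE 0.15) to Uqcrh at 0.07 (SE 0.13). In complex IV 7 of 9 were lower, with a median of -0.039, from Cox7a2 at -0.19 (SE 0.12) to Cox7b at 0.63 (SE 0.22). In complex V 7 of 10 were lower, with a median of -0.025, from Atp5c1 at -0.16 (SE 0.15) to Atp5g3 at 0.14 (SE 0.13). The median of the complex I subunits (-0.048) was lower than these 4 medians, and a difference between complexes was not tested.

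The members are spread over 17 chromosomes, and 12 of the 38 with a promoter in the table start within 1000 bases of a gene that runs the other way. Of these head-to-head partners 11 were measured, and none passed the test. Ndufaf5 starts 88 bases from Esf1, a nucleolar factor of ribosome synthesis, which differed by -0.03 (SE 0.20), and whether the pair differed from each other was not tested. Ndufb5 starts 308 bases from the mitochondrial ribosomal protein gene Mrpl47, which differed by -0.01 (SE 0.19). Ndufs3 starts 19 bases from Kbtbd4, which read 7.92, 7.95 and 7.51 in WT and 7.68, 8.01 and 7.60 in Merit40-/-. Its lowest values were on WT replicate 3, where Ndufs3 was also low, and on Merit40-/- replicate 3, where Ndufs3 was highest.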

How the data were processed

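The table deposited by the authors holds RMA levels on the log2 scale. The submitters' processing notes name RMA and affy. Not given in the sources used here are software versions, chip definition and build. The platform annotation paired 23185 of the 25206 probe sets with a single symbol and none with several, and the other 2021, unnamed here, were left out. All 23185 Entrez numbers were found in the RefSeq table (GRCm38.p6), which gave current symbols. Merit40-/- was compared with WT, 2-sided, over all named genes at any level with limma 3.58.1 in R 4.3.3 (lmFit, then eBayes; a model of genotype alone). P-values were adjusted by Benjamini-Hochberg over these genes, and 0.05 was the threshold. The code was tested on simulated data. Lists are described by counts and medians, with no test. Promoters were searched for letters in the 300-base RefSeq windows. The members and lists were chosen with earlier results of these data known. Values on every array are given for Babam1, the core subunits, the assembly factors, the 5 members highest and lowest in difference, members at an unadjusted p under 0.05, members whose genotypes do not overlap and members below the median of all genes. Ndufa4, the partners and the other lists' examples were added. Of other lists, the members highest and lowest in difference are named.

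The alternatives were a replicate block, a variance trend, array weights, 3 scalings, 2 filters on dim genes, all probe sets, each array left out in turn and an unmoderated test. Dropping Ndufa4, Ndufa4l2 and Ndufs5-ps was added after seeing the data. Same-numbered arrays correlated at -0.05, -0.0027 and 0.04 in their deviations from the group means, so the numbers were not taken to pair the arrays.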

Additional observations from a re-analysis of the deposited data

How the results depend on the processing

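Across 15 other fits no member passed the threshold in limma, with a smallest adjusted p of 0.965, and 1 gene in all, Babam1, passed in each (0 with the unmoderated test, which had 990 genes at an unadjusted p under 0.05 against 979 in limma). Babam1 ran from -4.06 to -3.85 with an array left out. With the replicate block 1 gene and 0 members passed, and Ndufaf7 had an unadjusted p of 0.0403 in limma. The block changed no call. Members at an unadjusted p under 0.05 numbered 0 to 2 per fit in limma; besides Ndufaf7 they were Ndufaf1, Ndufaf5, Ndufb8, Ndufb11 and Ndufv2, each with 1 array left out. With single arrays left out, the median difference ran from -0.11 to 0.03 for subunits and from -0.17 to 0.09 for assembly factors, with the sign of each changing. Of 23 members recomputed, 14 kept their sign wherever they were tested, Ndufa4l2 among them, which the filters on dim genes removed. The 9 others ran from -0.10 to 0.60 (Ndufab1), -0.054 to 0.26 (Ndufaf2), -0.018 to 0.059 (Ndufaf3), -0.21 to 0.11 (Ndufaf4), -0.25 to 0.18 (Ndufaf6), -0.14 to 0.11 (Ndufaf8), -0.47 to 0.14 (Ndufs3), -0.11 to 0.077 (Ndufs7) and -0.10 to 0.17 (Ndufs8) with an array left out. Ndufs7 also changed sign with each array centred on its median (0.0032). Without the dimmest 30% or 50% of genes 43 members remained. With 3 arrays per genotype the median interval of a member reached 0.332 to either side, before any adjustment for the number of genes. The threshold on adjusted p is stricter, and Ndufaf7, at -0.39, did not pass it (adjusted p = 0.999 in limma). Differences below 0.332, and some above it, could therefore be missed for most members.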

Other observations

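Regulators of mitochondrial gene expression, a list of 11 genes, had 8 members lower and 3 higher in Merit40-/-, with a median difference of -0.10 and none past the test in limma (adjusted p = 0.999). Tfam, which packages and transcribes mitochondrial DNA, read 6.99, 7.03 and 6.65 in WT and 7.12, 7.84 and 7.34 in Merit40-/-, so that all Merit40-/- arrays lay above all WT arrays (difference 0.54, SE 0.20, where 4.84% of all genes were higher without overlap). Yy1, whose letters were searched for in the promoters, lay the other way, at 8.74, 8.70 and 8.75 in WT and 8.52, 8.64 and 8.54 in Merit40-/-. All its Merit40-/- arrays were below all WT arrays (difference -0.16, SE 0.11, where 4.22% of all genes were lower without overlap). Tfb2m, a mitochondrial transcription factor, was the most scattered of the list, at 4.01, 3.91 and 5.87 in WT and 3.20, 7.08 and 2.78 in Merit40-/-. It was the lowest member by difference (-0.24, SE 1.06), with its highest and its lowest value both in Merit40-/-.

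The 5 genes outside complex I whose levels over the 6 arrays followed the mean of the 6 measured core subunits most closely were Gipc2, Cdk5r1, Snx21, Dancr and Dnajc11, with Pearson's r of 0.991 to 0.981. In all, 29 of the other genes had an r of at least 0.95. With 6 arrays and 23185 genes such values are a description only. The core mean includes Ndufs3, which scattered widely and lay close to the mark of low signal.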
